A study of Mus musculus with 32 samples.

Results

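Expression of 10 genes that mark granule cells of the dentate gyrus was examined in bulk RNA-seq of the mouse hippocampus. The genes are Prox1, C1ql2, Dsp, Tdo2, Lct, Calb1, Trpc6, Stxbp6, Glis3 and Npnt, taken by gene name from tables of 54532 genes, and each name matched 1 row. All 10 passed the filter on low counts that left 16723 genes for testing. Each library came from the dissected hippocampus of 1 hemisphere of 1 mouse aged 12 months, and 32 mice in 4 groups were measured, 8 to a group, of which 4 were female and 4 male. The 5xFAD/D-45113 group carried the 5xFAD transgenes, which are under Thy1 regulatory sequences that are active in neurons, and received D-45113, a hydroxyl dendrimer that carries an inhibitor of the CSF1R kinase. The 5xFAD/Veh group carried the same transgenes and received the dendrimer without the inhibitor. The WT/D-45113 group were C57BL/6J mice given D-45113, and the WT/Veh group were C57BL/6J mice given the dendrimer alone. Injections were intraperitoneal in all 4 groups and covered the last month before sacrifice, so no group was free of dendrimer.

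Granule cells are the principal neurons of the dentate gyrus. They receive input from the entorhinal cortex and send axons, called mossy fibres, to CA3 pyramidal cells and to hilar neurons, and new granule cells are added in adult mice from progenitors of the subgranular zone. Their RNA is 1 part of a whole-hippocampus extract, and in such a bulk sample fewer granule cells and less RNA per granule cell cannot be told apart.

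The 10 genes have different roles. Prox1 (ENSMUSG00000010175, chr1:190118035-190170714, minus strand, mm10) encodes a homeobox transcription factor that granule cells need to keep their identity, and Glis3 (ENSMUSG00000052942, chr19:28258851-28680077, minus strand) encodes a zinc finger transcription factor. C1ql2 (ENSMUSG00000036907, chr1:120340582-120343174, plus strand) encodes a secreted C1q-like protein of mossy fibre synapses, and Npnt (ENSMUSG00000040998, chr3:132881745-132950291, minus strand) encodes nephronectin, a matrix ligand of integrins. Dsp (ENSMUSG00000054889, chr13:38151294-38198577, plus strand) encodes desmoplakin, which ties desmosomes to intermediate filaments. Tdo2 (ENSMUSG00000028011, chr3:81957090-81976202, minus strand) encodes tryptophan dioxygenase, the entry enzyme of the kynurenine pathway, and Lct (ENSMUSG00000026354, chr1:128284756-128328318, minus strand) encodes lactase, best known from the gut. Calb1 (ENSMUSG00000028222, chr4:15881264-15908064, plus strand) encodes the calcium buffer calbindin, Trpc6 (ENSMUSG00000031997, chr9:8544142-8680741, plus strand) a calcium-permeable cation channel, and Stxbp6 (ENSMUSG00000046314, chr12:44852484-45074709, minus strand) amisyn, which binds the SNARE protein syntaxin. Reads were summed per gene. Prox1 overlaps the antisense gene Prox1os, which had a median of 50.5 counts, and Trpc6 overlaps Gm32014 on the other strand, with a median of 6 counts. No source used here states whether counting used strand, so reads of these pairs may be mixed.

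A RefSeq promoter window (GRCm38.p6, 250 bases before to 50 bases after a start site) was found for 9 of the 10 genes, and none was printed for Calb1. These windows differed widely in CG dinucleotides, against a median of 7 in the 32851 windows of the table. Lct had 1 and Tdo2 had 4, while C1ql2 had 23, Dsp had 27 and Glis3 had 32, and the GC content ranged from 44.7% in Lct to 76.7% in the upstream window of Npnt. The sequences of 4 windows are given because Tdo2, Lct and Dsp varied together from mouse to mouse while Glis3 did not vary with them. Capitals mark CG dinucleotides, and each run is written 5′ to 3′ on the strand of the gene. The windows are Tdo2 at chr3:81975679-81975978 (minus strand), Lct at chr1:128328269-128328568 (minus strand), Dsp at chr13:38151044-38151343 (plus strand) and Glis3 at chr19:28680028-28680327 (minus strand). Those of Lct, Dsp and Glis3 cover the start of the gene as counted. The Tdo2 window lies inside the gene as counted, downstream of its start at chr3:81976202.
Tdo2 promoter: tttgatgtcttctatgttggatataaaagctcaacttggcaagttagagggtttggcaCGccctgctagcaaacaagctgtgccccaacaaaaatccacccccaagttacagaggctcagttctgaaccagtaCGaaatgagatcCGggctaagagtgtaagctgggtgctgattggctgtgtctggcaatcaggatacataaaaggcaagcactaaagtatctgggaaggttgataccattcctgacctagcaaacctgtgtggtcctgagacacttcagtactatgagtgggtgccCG
Lct promoter: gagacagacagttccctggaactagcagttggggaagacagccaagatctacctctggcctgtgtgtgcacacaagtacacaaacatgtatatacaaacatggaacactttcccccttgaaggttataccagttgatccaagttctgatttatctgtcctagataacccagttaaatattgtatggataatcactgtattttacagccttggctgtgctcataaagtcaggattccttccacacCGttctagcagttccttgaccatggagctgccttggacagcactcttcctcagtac
Dsp promoter: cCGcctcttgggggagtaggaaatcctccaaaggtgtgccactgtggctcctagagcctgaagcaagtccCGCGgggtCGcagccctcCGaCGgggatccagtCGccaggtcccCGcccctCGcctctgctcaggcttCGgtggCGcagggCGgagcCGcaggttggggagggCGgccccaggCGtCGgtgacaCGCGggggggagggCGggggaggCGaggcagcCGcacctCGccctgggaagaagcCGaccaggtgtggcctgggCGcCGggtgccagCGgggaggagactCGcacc
Glis3 promoter: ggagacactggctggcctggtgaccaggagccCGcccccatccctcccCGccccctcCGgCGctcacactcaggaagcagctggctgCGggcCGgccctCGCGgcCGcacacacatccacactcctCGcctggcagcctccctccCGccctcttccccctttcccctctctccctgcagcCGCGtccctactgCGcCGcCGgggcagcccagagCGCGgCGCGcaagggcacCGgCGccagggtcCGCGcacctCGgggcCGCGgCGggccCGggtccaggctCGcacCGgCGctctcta
The motif GGGCGG, searched on both strands, was found 4 times in the Dsp window and 3 times in the Glis3 window and was not in the Tdo2 or Lct window, and 35.7% of all windows held it. In base composition, Dsp therefore stood with Glis3, and Tdo2 with Lct. A match is a description of letters and not of a binding site.

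Libraries held 10707410 to 28869539 counts in 5xFAD/D-45113, 16536173 to 30368498 in 5xFAD/Veh, 14932699 to 21047277 in WT/D-45113 and 15444249 to 27921743 in WT/Veh. Thy1, whose regulatory sequence drives the transgenes, read 423 to 1208 CPM (a count scaled to the size of its library, with TMM factors) in 5xFAD/D-45113 and 876 to 1416 CPM in 5xFAD/Veh, against 381 to 484 CPM in WT/D-45113 and 393 to 529 CPM in WT/Veh. The 5xFAD/D-45113 mice 1M and 4F were within the WT range, and 0 of 32 libraries went against the sex in its title. Markers of neighbouring tissue varied strongly. The summed level of 12 choroid plexus genes was 64.5 to 5323 CPM in 5xFAD/D-45113, 35.7 to 825 CPM in 5xFAD/Veh, 66.5 to 4445 CPM in WT/D-45113 and 54.2 to 3309 CPM in WT/Veh. That of 12 thalamus and habenula genes was 319 to 1780 CPM in 5xFAD/D-45113, 171 to 515 CPM in 5xFAD/Veh, 190 to 1918 CPM in WT/D-45113 and 201 to 1529 CPM in WT/Veh. Among these markers, Slc4a5, Tmem72, Steap1, Tnnt1, Gbx2 and Shox2 were at 0 counts in at least 1 library. The summed level of 5 striatum genes was 38.0 to 956 CPM in 5xFAD/D-45113 and 260 to 1660 CPM in 5xFAD/Veh. In WT/D-45113 it was 96.8 to 1233 CPM, and in WT/Veh 522 to 2822 CPM.

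Per length, in FPKM, Calb1, C1ql2 and Stxbp6 were the most abundant of the 10 genes in every group. In WT/Veh mice the median FPKM was 33.4 for Calb1, 26.4 for C1ql2, 19.2 for Stxbp6, 7.72 for Prox1, 3.66 for Lct, 2.72 for Npnt, 2.38 for Dsp, 2.19 for Trpc6, 0.850 for Glis3 and 0.629 for Tdo2. Only some steps in this order held from mouse to mouse. Stxbp6 was above Prox1 in 8 of 8 mice of each group, whereas Calb1 was above C1ql2 in 4 of 8 WT/Veh mice and Glis3 above Tdo2 in 5 of 8. In 5xFAD/D-45113 mice Lct and Dsp had nearly equal medians of 1.64 and 1.62 FPKM, and Lct was the higher in 4 of 8 mice. Tdo2 was the least abundant in all 4 groups, and its counts ran down to 5 in 1 library, with a median of 60.5, so that counting error adds to its spread.

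The most prominent feature of these genes was their range among mice of 1 group. Lct read 1.41 to 54.6 CPM in 5xFAD/D-45113 mice (median 10.4), 1.46 to 64.8 CPM in 5xFAD/Veh mice (median 24.9), 4.50 to 85.2 CPM in WT/D-45113 mice (median 44.0) and 4.82 to 52.0 CPM in WT/Veh mice (median 23.2). Dsp read 2.26 to 38.3 CPM (median 15.5) in 5xFAD/D-45113, 1.13 to 43.6 CPM (median 23.9) in 5xFAD/Veh, 8.34 to 75.2 CPM (median 33.6) in WT/D-45113 and 4.66 to 44.1 CPM (median 22.5) in WT/Veh. Tdo2 read 0.388 to 5.35 CPM (median 2.10) in 5xFAD/D-45113, 0.459 to 9.09 CPM (median 3.76) in 5xFAD/Veh, 0.278 to 10.01 CPM (median 3.68) in WT/D-45113 and 0.469 to 4.44 CPM (median 2.41) in WT/Veh. The 4 groups overlapped widely for all 3 genes, and the highest mouse of a group exceeded its lowest by 9.02-fold or more.

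Of the genes of secreted proteins, C1ql2 varied more than Npnt. C1ql2 read 12.8 to 125 CPM (median 46.5) in 5xFAD/D-45113, 15.4 to 191 CPM (median 47.5) in 5xFAD/Veh, 15.9 to 181 CPM (median 73.1) in WT/D-45113 and 9.09 to 94.6 CPM (median 52.0) in WT/Veh. Npnt read 8.29 to 33.8 CPM (median 15.2) in 5xFAD/D-45113, 8.67 to 33.9 CPM (median 21.4) in 5xFAD/Veh, 6.06 to 32.7 CPM (median 20.2) in WT/D-45113 and 6.06 to 25.4 CPM (median 13.4) in WT/Veh. The groups overlapped for both genes.

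Prox1, the identity factor, read 43.3 to 116 CPM (median 65.7) in 5xFAD/D-45113, 28.3 to 156 CPM (median 71.1) in 5xFAD/Veh, 30.2 to 163 CPM (median 94.3) in WT/D-45113 and 33.0 to 119 CPM (median 62.9) in WT/Veh. Stxbp6 read 68.1 to 178 CPM (median 110) in 5xFAD/D-45113, 59.0 to 203 CPM (median 101) in 5xFAD/Veh, 47.1 to 200 CPM (median 131) in WT/D-45113 and 44.98 to 132 CPM (median 99.5) in WT/Veh. Trpc6 read 1.31 to 18.4 CPM (median 6.64) in 5xFAD/D-45113, 5.83 to 19.2 CPM (median 9.16) in 5xFAD/Veh, 6.45 to 20.5 CPM (median 12.3) in WT/D-45113 and 4.14 to 15.4 CPM (median 10.99) in WT/Veh. The lowest Trpc6 value of the study, in the 5xFAD/D-45113 mouse 4F, came from 15 counts.

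Calb1 and Glis3 were the least variable once group means were removed. Calb1 read 59.7 to 141 CPM (median 118) in 5xFAD/D-45113, 80.8 to 258 CPM (median 124) in 5xFAD/Veh, 93.5 to 151 CPM (median 133) in WT/D-45113 and 108 to 213 CPM (median 160) in WT/Veh. Glis3 read 7.39 to 22.4 CPM (median 12.1) in 5xFAD/D-45113, 8.68 to 14.8 CPM (median 9.70) in 5xFAD/Veh, 7.04 to 12.4 CPM (median 9.05) in WT/D-45113 and 3.38 to 13.8 CPM (median 7.35) in WT/Veh. WT/Veh had the highest median of the 4 groups for Calb1 and the lowest for Glis3, and again all groups overlapped.

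**Figure D1:**
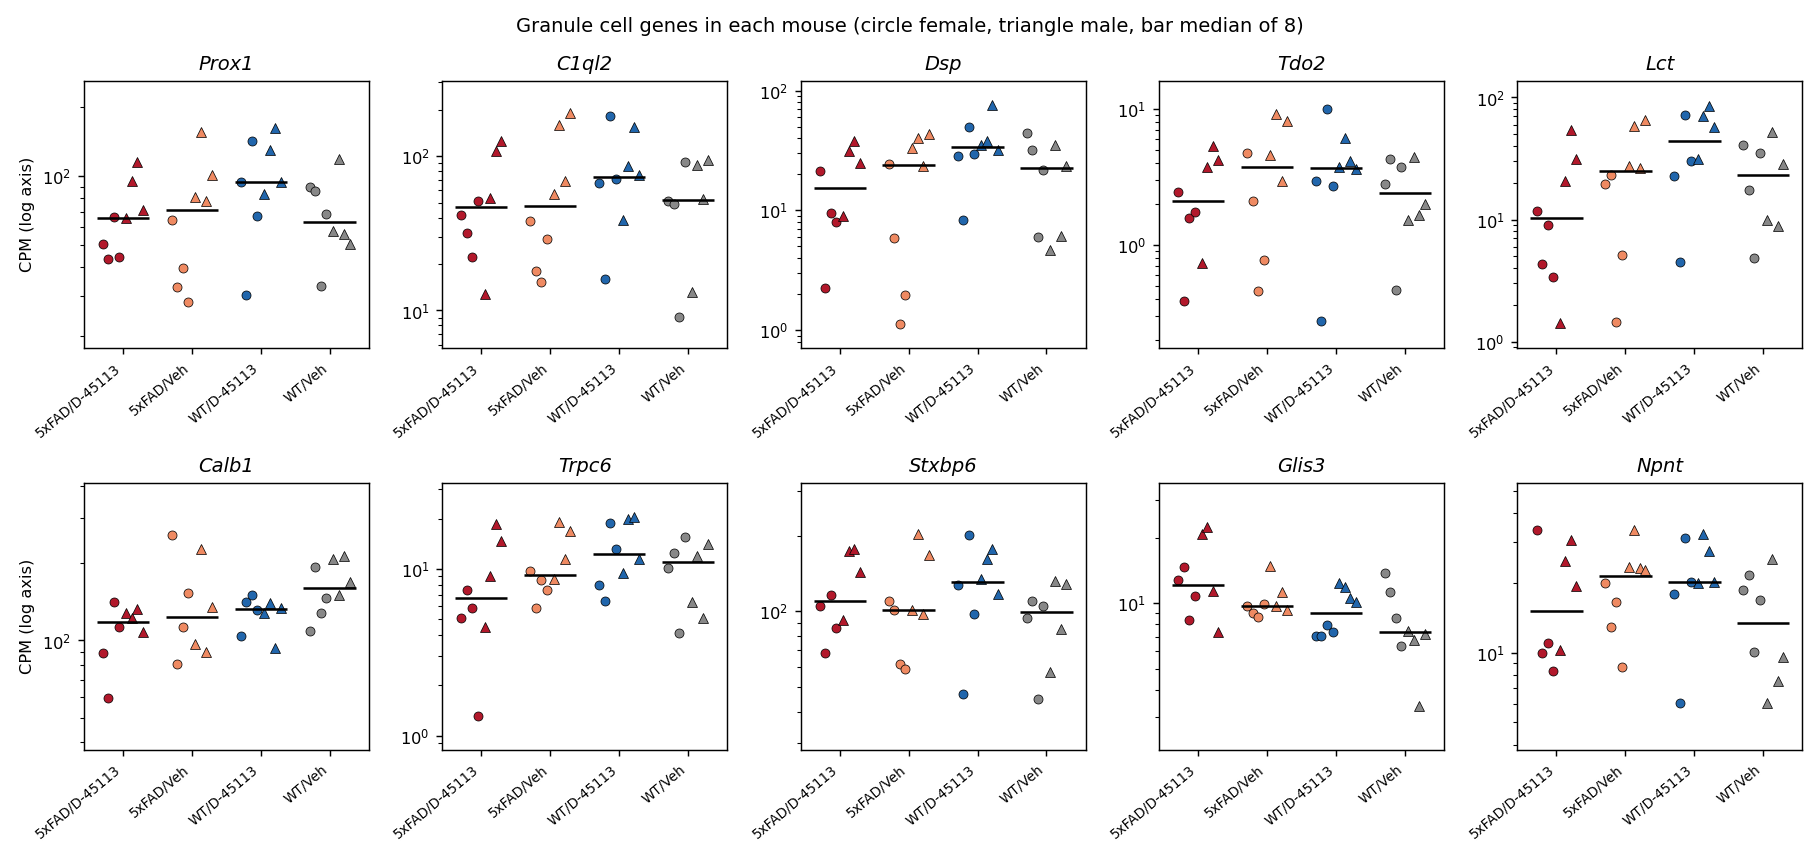
CPM of each of the 10 granule cell genes (log axis) in every mouse by group, with circles for females, triangles for males and a bar at the median of 8 mice. Lct spans 1.41 to 85.2 CPM over the 32 mice, Calb1 59.7 to 258 CPM, and the 4 groups overlap for every gene.

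After group means were removed, the SD of log2 CPM was 1.55 for Lct, 1.45 for Dsp, 1.27 for Tdo2 and 1.21 for C1ql2, against a median of 0.37 over all genes tested. Among genes within 0.5 log2 units of the same mean level, 8 of the 10 genes had an SD above that of 96.6% or more of genes (99.9% for Lct), while Calb1 stood at 88.7% and Glis3 at 77.8%. These percentiles are a description.

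The same 8 genes varied together. Over the 32 mice, with group means removed, the 28 pairs of Prox1, C1ql2, Dsp, Tdo2, Lct, Trpc6, Stxbp6 and Npnt had Pearson correlations of 0.59 (Dsp with Trpc6) to 0.92 (Tdo2 with Stxbp6), with a median of 0.79. Calb1 correlated with these 8 genes at -0.01 to 0.27 and Glis3 at -0.11 to 0.30, and the correlation of Calb1 with Glis3 was -0.24. With the means of each sex in each group removed as well, the 28 pairs still ranged from 0.46 to 0.90. Within single groups of 8 mice, the median of the 28 pairs was 0.73 in 5xFAD/D-45113, 0.84 in 5xFAD/Veh, 0.92 in WT/D-45113 and 0.80 in WT/Veh. All points of a mouse come from 1 library and 1 dissection, so these correlations are given without a test.

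**Figure D2:**
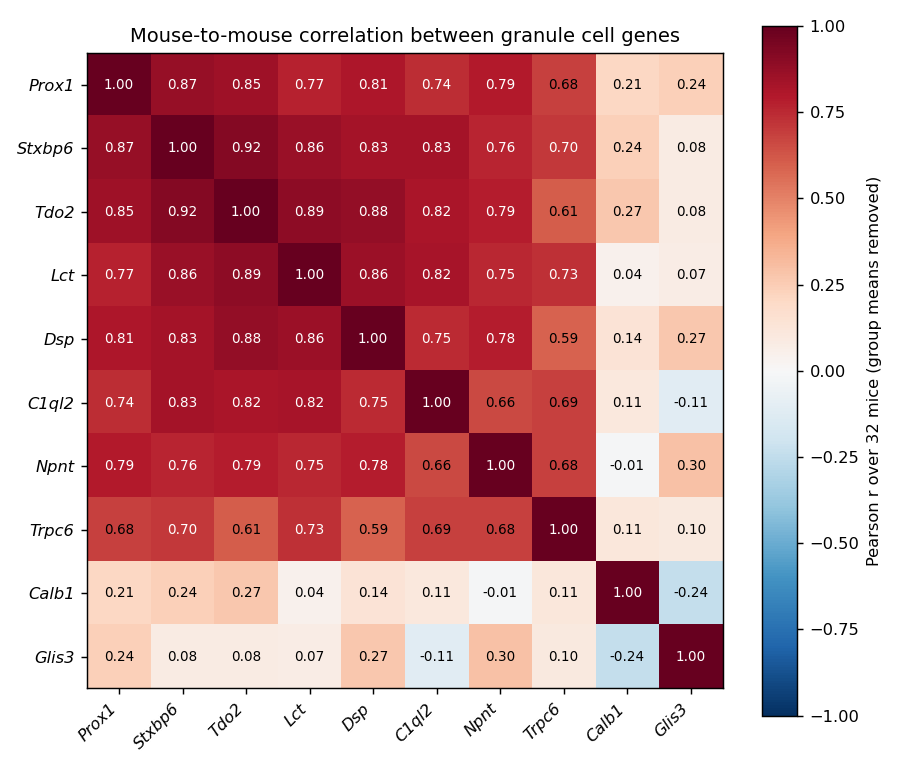
Pearson correlation of log2 CPM between the 10 genes over 32 mice, group means removed, with red for positive and blue for negative values. The 8 genes from Prox1 to Trpc6 form a block of 0.59 to 0.92, and Calb1 and Glis3 lie outside it at -0.24 to 0.30.

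In 16 of 32 mice all 8 of these genes lay on 1 side of their group mean, and the other mice were mixed. In 11 of 32 mice all 8 genes were above the mean of their own group, and in 5 mice all 8 were below it. The WT/D-45113 mouse 2F had the lowest mean of the 10 genes, at -1.59 on the log2 scale from its group mean, followed by the 5xFAD/Veh mouse 3F (-1.32), the WT/Veh mouse 3F (-1.12) and the 5xFAD/Veh mouse 4F (-1.02). The highest were the 5xFAD/Veh mouse 2M (1.15) and the 5xFAD/D-45113 mouse 3M (1.07). In the WT/D-45113 mouse 2F, Calb1 was 0.15 above its group mean while Tdo2 was at 0.278 CPM. Each group held low and high mice, from -0.87 to 1.07 in 5xFAD/D-45113, -1.32 to 1.15 in 5xFAD/Veh, -1.59 to 0.73 in WT/D-45113 and -1.12 to 0.71 in WT/Veh.

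**Figure D3:**
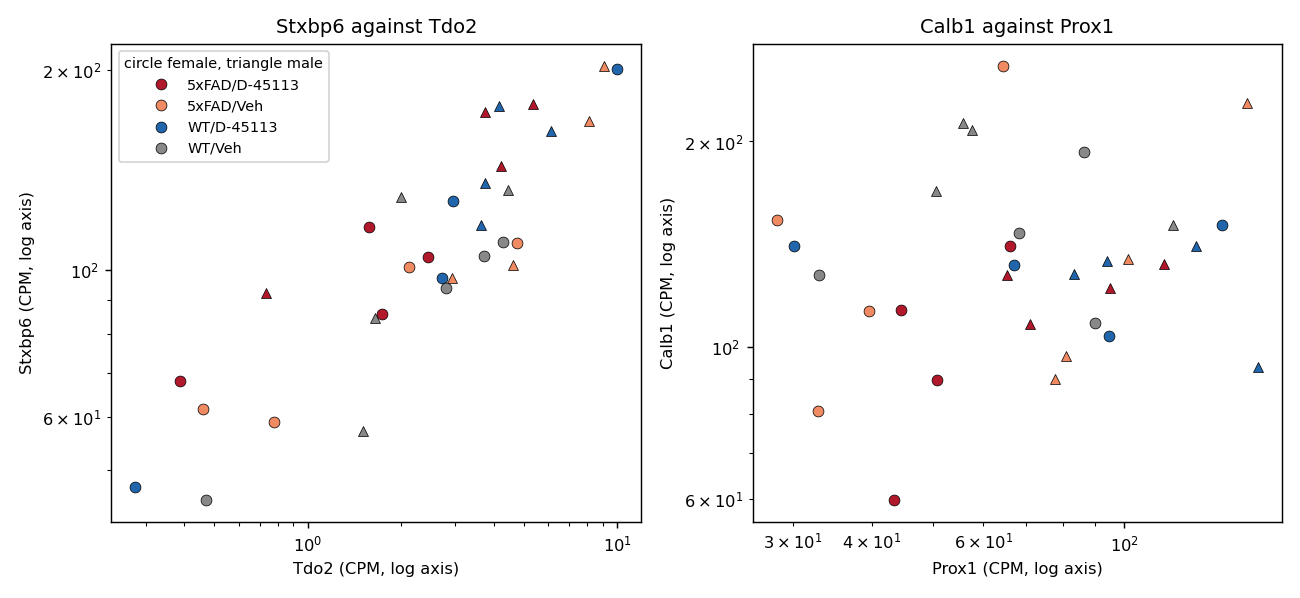
CPM of Stxbp6 against Tdo2 (left) and of Calb1 against Prox1 (right) in 32 mice, both axes logarithmic, colours for groups, circles for females and triangles for males. Tdo2 and Stxbp6 follow each other in all 4 groups (r = 0.92 with group means removed), and Calb1 stays between 59.7 and 258 CPM while Prox1 ranges from 28.3 to 163 CPM.

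Of 14664 other genes with a mean of at least 1 CPM, the 10 whose pattern over the 32 mice was most like the mean of the 10 granule cell genes were Sema5a (r = 0.90), Slc39a6 (0.90), Fam163b (0.89), Cemip (0.89), Pcdh19 (0.88), Gpc4 (0.88), Ccdc85a (0.87), Dhx33 (0.86), Amer3 (0.86) and F730043M19Rik (0.86). Sema5a encodes a semaphorin, Slc39a6 a zinc transporter, Pcdh19 a protocadherin and Gpc4 a glypican. Over all these genes the median r was 0.00 and 35 reached 0.8. Members and marker lists were chosen with earlier results of these data known, so the likeness of lists to members is a description only. Sema5a and Fam163b also stood in the list of 10 other granule cell genes, whose mean followed that of the members at r = 0.90. The mean of 6 mossy fibre genes did so at 0.77, of CA3 genes at 0.37, of CA1 genes at 0.11, of choroid plexus genes at -0.18, of thalamus genes at -0.08, of striatum genes at -0.39, of interneuron genes at -0.46 and of microglia genes at 0.19. Lists of other states of granule cells did not follow the members, with 6 genes of immature neurons and progenitors at 0.07 and 6 genes of hyperactive granule cells at -0.39. The mean of 6 partners and relatives of C1ql2 stood at 0.73 and that of 7 kynurenine pathway genes at -0.62. The C1ql2 list shares C1ql3 with the mossy fibre list and Grik4 with the CA3 list, so these values are not separate. Kynu and Haao of the kynurenine list were at 0 counts in some WT libraries.

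Calb1 and Glis3 had other nearest genes, which were looked up after their values were seen. For Calb1 these were Casd1 (r = 0.77), Kcna4 (0.73), Dchs2 (0.73), Klhl7 (0.72) and Dcaf12l1 (0.71). For Glis3 they were Fbn1 (0.84), which encodes the matrix protein fibrillin, Myof (0.82), Unc13b (0.79), Mtr (0.77) and Ifnar1 (0.76). Both members are also expressed outside granule cells, calbindin for example in interneurons and CA1 pyramidal cells, and Calb1 followed the mean of 10 other granule cell genes at r = 0.38, of 5 striatum genes at 0.38, of 7 interneuron genes at 0.13 and of 6 CA1 genes at -0.21.

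The question of the 5xFAD genotype was addressed first under vehicle. None of the 10 genes was called in 5xFAD/Veh against WT/Veh mice at an adjusted p of 0.05 (edgeR quasi-likelihood test, Benjamini-Hochberg over all genes), where 3.86% of all genes tested were called. None had an unadjusted p under 0.05 (0 of 10), and DESeq2 and limma voom called 0 as well. The log2 fold changes were positive for 8 genes and negative for 2, with a median of 0.23, against -0.02 over all genes. Because 8 of the 10 genes varied together from mouse to mouse, their signs here and below are not independent of each other. All 12 thalamus and all 12 choroid plexus genes had negative values in this comparison, with medians of -1.11 and -1.65, 0 called by edgeR, and 7 and 4 at an unadjusted p under 0.05. With these levels as covariates the granule cell genes had a median of 0.17, with 6 positive and 4 negative values. The largest was that of Tdo2, which averaged 4.10 ± 3.19 CPM in 5xFAD/Veh and 2.62 ± 1.44 CPM in WT/Veh mice (SD, n = 8 each), with a log2 fold change of 0.64 and a 95% confidence interval of -0.47 to 1.75. Prox1 averaged 72.7 ± 42.5 CPM in 5xFAD/Veh and 70.1 ± 27.3 CPM in WT/Veh mice, a log2 fold change of 0.05 with an interval of -0.60 to 0.70. Calb1 averaged 144 ± 65.8 CPM in 5xFAD/Veh and 165 ± 37.9 CPM in WT/Veh mice, a log2 fold change of -0.19 (interval -0.59 to 0.21), and 3 of 8 5xFAD/Veh mice were under the lowest WT/Veh mouse while 2 were over the highest. All 5 striatum genes were negative here as well, with a median of -0.65 and 0 called by edgeR. Their part in the Calb1 value was not tested.

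The effect of D-45113 without transgenes was compared in WT mice. None of the 10 genes was called in WT/D-45113 against WT/Veh mice, where edgeR called 0.0239% of all genes, 0 of 10 had an unadjusted p under 0.05, and DESeq2 and limma voom called 0 of 10. The fold changes were positive for 9 genes, with a median of 0.56 on the log2 scale against 0.00 over all genes. Lct averaged 46.5 ± 28.4 CPM in WT/D-45113 and 24.7 ± 17.0 CPM in WT/Veh mice, a log2 fold change of 0.91 (interval -0.43 to 2.26). Stxbp6 averaged 133 ± 48.1 CPM in WT/D-45113 and 94.6 ± 31.4 CPM in WT/Veh mice, a log2 fold change of 0.49 (interval -0.05 to 1.03), with 7 of 8 treated mice above the WT/Veh mean. Calb1 was the 1 gene with a negative value. It averaged 128 ± 19.5 CPM in WT/D-45113 and 165 ± 37.9 CPM in WT/Veh mice, a log2 fold change of -0.36 (interval -0.77 to 0.04, adjusted p = 0.771 by edgeR), and 0 of 8 treated mice were above the WT/Veh mean. All 5 striatum genes also had negative values here, with a median of -0.98. Of these, 0 were called by edgeR and 1 had an unadjusted p under 0.05. Their part in the Calb1 value was not tested.

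In 5xFAD mice the treatment was compared between 5xFAD/D-45113 and 5xFAD/Veh. Again 0 of 10 genes were called by edgeR, DESeq2 or limma voom, 0 had an unadjusted p under 0.05 by edgeR, and 3.96% of all genes were called. The fold changes were negative for 8 genes and positive for Stxbp6 and Glis3, with a median of -0.31 against 0.01 over all genes. Calb1 averaged 112 ± 26.3 CPM in 5xFAD/D-45113 and 144 ± 65.8 CPM in 5xFAD/Veh mice, a log2 fold change of -0.37 (interval -0.77 to 0.03, adjusted p = 0.304 by edgeR), and 0 of 8 treated mice were above the 5xFAD/Veh mean, which 2 high mice (1F and 2M) raised. The 5 striatum genes were all negative in this comparison, with a median of -1.12 and 0 called by edgeR. Their part in the Calb1 value was not tested. Glis3 averaged 13.6 ± 5.49 CPM in 5xFAD/D-45113 and 10.3 ± 1.97 CPM in 5xFAD/Veh mice, a log2 fold change of 0.40 (interval -0.04 to 0.85, adjusted p = 0.313 by edgeR). Lct averaged 17.0 ± 18.2 CPM in 5xFAD/D-45113 and 28.4 ± 22.8 CPM in 5xFAD/Veh mice, with a log2 fold change of -0.73 and an interval of -2.09 to 0.63. For Prox1 the value was -0.07 with an interval of -0.73 to 0.58. In this comparison all 12 thalamus and all 12 choroid plexus genes had positive values, with median log2 fold changes of 1.61 and 2.23, and 4 and 1 of them were called higher. With these levels as covariates the median of the granule cell genes was -0.13, with 7 negative and 3 positive values.

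Between the treated genotypes, 5xFAD/D-45113 against WT/D-45113, 9 of the 10 genes had negative values, with a median of -0.59 against 0.02 over all genes. EdgeR called 0 of 10 and 5.06% of all genes, DESeq2 and limma voom called 0 of 10, and 2 of 10, Lct and Glis3, had an unadjusted p under 0.05 by edgeR, as had 3059 of 16723 genes overall. All 12 thalamus and all 12 choroid plexus genes had positive values here, with medians of 0.59 and 0.34, 0 called by edgeR, and 1 and 0 at an unadjusted p under 0.05. With these levels as covariates the granule cell genes had a median of -0.58, and 9 of 10 were negative. Lct averaged 17.0 ± 18.2 CPM in 5xFAD/D-45113 and 46.5 ± 28.4 CPM in WT/D-45113 mice, a log2 fold change of -1.44 (SE 0.66, interval -2.80 to -0.09, adjusted p = 0.245 by edgeR), and 7 of 8 treated 5xFAD mice were below the WT/D-45113 mean. Glis3 averaged 13.6 ± 5.49 CPM in 5xFAD/D-45113 and 9.30 ± 2.20 CPM in WT/D-45113 mice, a log2 fold change of 0.55 (SE 0.22, interval 0.10 to 1.00, adjusted p = 0.157 by edgeR), and 4 of 8 treated 5xFAD mice were above the highest WT/D-45113 mouse. Trpc6 averaged 8.27 ± 5.65 CPM in 5xFAD/D-45113 and 13.5 ± 5.63 CPM in WT/D-45113 mice, a log2 fold change of -0.70 with an interval of -1.42 to 0.03. Dsp had a log2 fold change of -1.03 with an interval of -2.27 to 0.22.

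**Figure D4:**
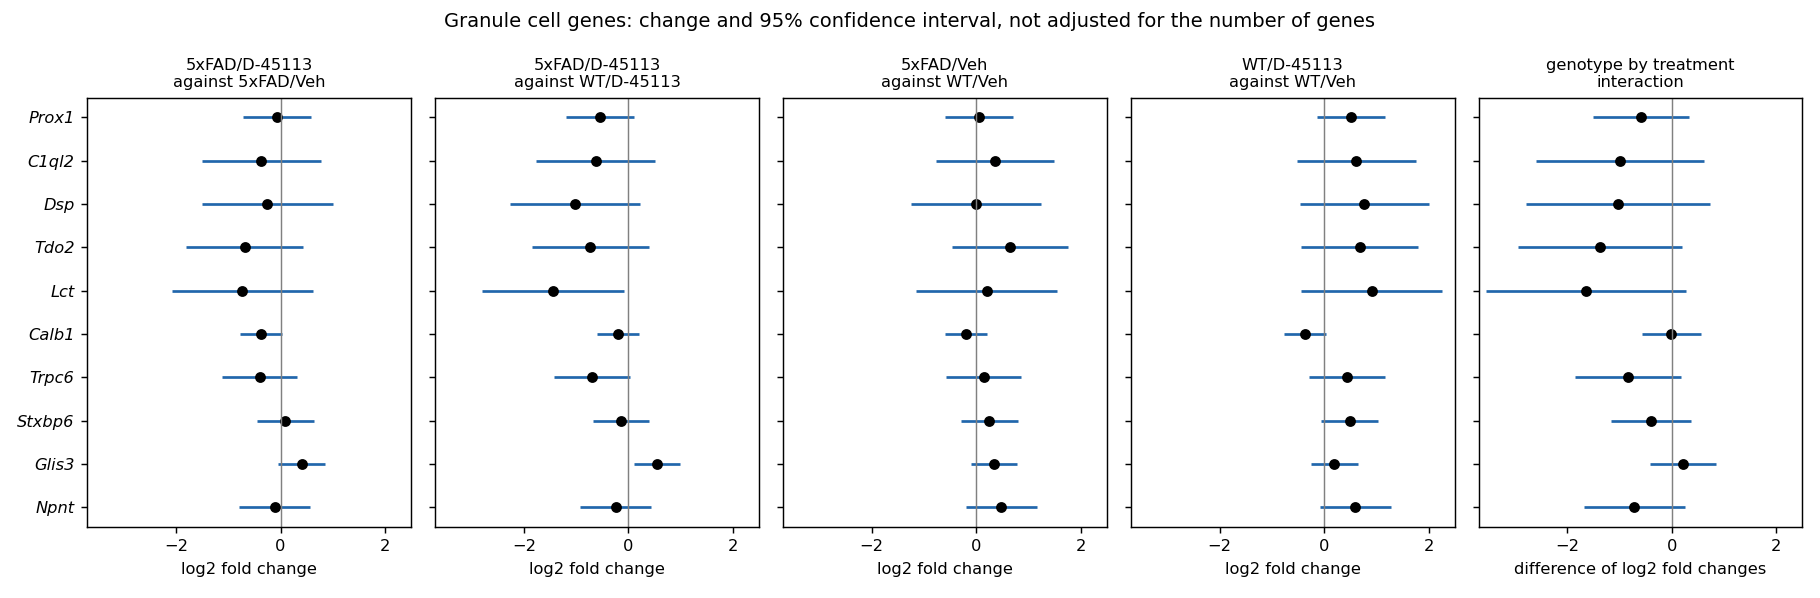
Log2 fold change of each gene (dot) with its 95% confidence interval (line) in 4 comparisons, and the genotype by treatment interaction, from edgeR. Intervals are not adjusted for the number of genes, and 2 of the 50 shown leave out 0, those of Lct and Glis3 in 5xFAD/D-45113 against WT/D-45113.

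The genotype by treatment interaction, which asks whether D-45113 acted differently in 5xFAD and WT mice, was called for 0 of 10 genes and 0% of all genes by edgeR. For the 10 genes an unadjusted p under 0.05 was reached by 0, and DESeq2 and limma voom called 0. The interaction values were negative for 9 genes with a median of -0.78 against 0.02 over all genes, from -1.64 for Lct (interval -3.56 to 0.27) to 0.21 for Glis3 (interval -0.42 to 0.84), and Calb1 stood at -0.01 (interval -0.58 to 0.56). All 12 thalamus and all 12 choroid plexus genes had positive interaction values, with medians of 1.62 and 2.02, 0 called by edgeR, and 9 and 2 at an unadjusted p under 0.05. With these levels as covariates the median interaction value of the granule cell genes was -0.59, with 9 of 10 negative. The 4 comparisons and the interaction share groups of mice, so their values are not independent of each other. The Calb1 level relative to Prox1 was not tested, and its mean log2 CPM difference was 0.73 ± 0.39 in 5xFAD/D-45113, 1.08 ± 0.85 in 5xFAD/Veh, 0.48 ± 0.87 in WT/D-45113 and 1.29 ± 0.69 in WT/Veh (SD, n = 8 each).

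Other granule cell genes were read in the same fits, with edgeR alone for whole lists. Of 10 such genes, 2 fell and 0 rose in 5xFAD/D-45113 relative to 5xFAD/Veh mice, where 3.96% of all genes were called, with a median log2 fold change of -0.32. Pdyn, which encodes the precursor of dynorphin, read 16.7 to 48.4 CPM (median 31.8) in 5xFAD/D-45113 and 24.1 to 121 CPM (median 78.2) in 5xFAD/Veh mice, or -1.25 on the log2 scale (SE 0.33, adjusted p = 0.0299 by edgeR). Bcl11b, which encodes a zinc finger transcription factor, read 83.2 to 246 CPM (median 130) in 5xFAD/D-45113 and 165 to 309 CPM (median 218) in 5xFAD/Veh mice, or -0.68 on the log2 scale (SE 0.19, adjusted p = 0.0351 by edgeR). The groups overlapped for both genes, and neurons other than granule cells, among them striatal neurons, also express them. All 5 striatum marker genes had negative values in this comparison, with a median of -1.12, 0 called by edgeR and 1 at an unadjusted p under 0.05. Their summed level was 38.0 to 956 CPM (median 569) in 5xFAD/D-45113 and 260 to 1660 CPM (median 895) in 5xFAD/Veh mice, and their part in the Pdyn and Bcl11b values was not tested. With the thalamus and choroid plexus levels as covariates, 2 of all genes were called, and neither Pdyn nor Bcl11b was among them. Pdyn was then at -1.61 (unadjusted p = 0.000624, adjusted p = 0.261 by edgeR). Bcl11b was at -0.29 (unadjusted p = 0.138, adjusted p = 0.796 by edgeR). Ahcyl2 stood at 0.32 (adjusted p = 0.0685) and Rfx3 at -0.62 (adjusted p = 0.177). In 5xFAD/D-45113 against WT/D-45113 mice, where 5.06% of all genes were called, 1 of the 10, the transcription factor gene Rfx3, was called lower (-0.89, SE 0.26, adjusted p = 0.0451 by edgeR), with Bcl11b at -0.60 (adjusted p = 0.0599). Rfx3 was called in 13 of 32 fits that left out 1 mouse, and with the thalamus and choroid plexus levels as covariates it was at -0.76 (adjusted p = 0.158). In 5xFAD/Veh against WT/Veh 0 of the 10 were called, 0 had an unadjusted p under 0.05, and the median was 0.07. In WT/D-45113 against WT/Veh 0 were called, 2 had an unadjusted p under 0.05, and the median was 0.22. The 2 were Sema5a at 0.72 (adjusted p = 0.648 by edgeR) and Pdyn at -0.78 (adjusted p = 0.655 by edgeR). Pdyn thus had a negative value in WT mice as well, with medians of 37.1 CPM in WT/D-45113 and 69.2 CPM in WT/Veh. All 5 striatum genes were negative in this WT comparison too, with a median of -0.98 and 0 called by edgeR. Their summed level had a median of 813 CPM in WT/D-45113 and 1524 CPM in WT/Veh. Their part in the Pdyn value of WT mice was not tested.

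Genes of mossy fibre terminals and of hyperactive or immature granule cells gave few calls. Of 6 mossy fibre genes 0 were called in each of these 4 comparisons, and 0 or 1 had an unadjusted p under 0.05. Their median in 5xFAD/D-45113 against 5xFAD/Veh was -0.39, with Synpr, a synaptic vesicle protein, at -0.58 (adjusted p = 0.136 by edgeR). Of 6 genes that rise in granule cells under hyperactivity, 1 was called, and it fell in 5xFAD/D-45113 relative to 5xFAD/Veh mice. In that comparison 3.96% of all genes were called. All 6 had negative values there, and 4 had an unadjusted p under 0.05 by edgeR, as had 3327 of 16723 genes overall. The called gene was Inhba, which encodes a subunit of activin and read 3.46 to 11.9 CPM (median 5.15) in 5xFAD/D-45113 and 6.51 to 60.7 CPM (median 10.6) in 5xFAD/Veh mice (-1.41 on the log2 scale, SE 0.35, adjusted p = 0.0210 by edgeR). The 60.7 CPM came from the 5xFAD/Veh mouse 3F, while the next mouse of that group had 12.3 CPM, and without 3F the value was -0.71 (adjusted p = 0.0969 by edgeR). With the thalamus and choroid plexus levels as covariates, where 2 of all genes were called, Inhba was at -1.28 (unadjusted p = 0.00667, adjusted p = 0.399 by edgeR). In the same comparison Npy stood at -0.87 (adjusted p = 0.0670), Penk at -1.24 (adjusted p = 0.129) and Fosb at -0.93 (adjusted p = 0.143), and the list's median was -0.90. Striatal neurons also express Penk, and the part of the striatum genes, with their median of -1.12, in this list's values was not tested. Of 6 genes of immature neurons and progenitors 0 were called in any of these comparisons, with 0 or 1 at an unadjusted p under 0.05, and Dcx, a marker of young neurons, stood at -0.56 in 5xFAD/D-45113 against 5xFAD/Veh (adjusted p = 0.197).

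The partners of the member proteins were also read. Of 7 further kynurenine pathway genes tested, Kynu, which encodes kynureninase, rose in 5xFAD/Veh relative to WT/Veh mice (2.71 on the log2 scale, SE 0.78, adjusted p = 0.0315 by edgeR) and in 5xFAD/D-45113 relative to WT/D-45113 mice (2.65, SE 0.79, adjusted p = 0.0365). Its counts were low, at 2 to 30 in 5xFAD/D-45113, 7 to 29 in 5xFAD/Veh, 0 to 8 in WT/D-45113 and 0 to 7 in WT/Veh mice, and 5 of 8 WT/D-45113 and 2 of 8 WT/Veh libraries were at 0. These 2 comparisons called 3.86% and 5.06% of all genes. Kynu was called in 21 and 23 of 32 fits that left out 1 mouse. With the thalamus and choroid plexus levels as covariates its adjusted p was 0.00419 and 0.0546 by edgeR. Haao, the dioxygenase further down that pathway, rose in 5xFAD/D-45113 relative to WT/D-45113 mice (2.34, SE 0.66, adjusted p = 0.0237), with 2 to 27 counts in 5xFAD/D-45113 and 0 to 4 in WT/D-45113 libraries. Its median was 0.62 CPM in 5xFAD/D-45113, 0.92 CPM in 5xFAD/Veh, 0.12 CPM in WT/D-45113 and 0.22 CPM in WT/Veh. Haao was thus not highest in treated 5xFAD mice, and it was called in 29 of 32 fits that left out 1 mouse. All 7 microglia genes were called higher in 5xFAD/Veh mice, with summed levels of 1170 to 1498 CPM against 406 to 604 CPM in WT/Veh mice, and their part in the Kynu value was not tested. Tdo2, the first enzyme of the pathway, was not called in these comparisons (adjusted p = 0.768 and 0.525). Of 5 other Trpc channel genes, Trpc1 fell in 5xFAD/D-45113, with 34.9 to 59.0 CPM (median 47.7), relative to WT/D-45113 mice, with 53.3 to 72.8 CPM (median 60.5), or -0.37 on the log2 scale (SE 0.11, adjusted p = 0.0375 by edgeR). Trpc1 was not called with the thalamus and choroid plexus levels as covariates (-0.32, adjusted p = 0.135), and was called in 23 of 32 fits that left out 1 mouse. In the 4 group comparisons 0 genes were called among 6 partners and relatives of C1ql2, 5 desmosome genes, 6 relatives and partners of Npnt and 4 Gli family genes. At an unadjusted p under 0.05 by edgeR these lists had 0 to 1, 0, 0 to 3 and 0 to 2 genes in a comparison.

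With group in the model, females had lower values than males for all 10 genes, but none was called. Within WT/Veh mice, female medians were above male medians for Prox1, Dsp, Tdo2, Lct, Trpc6, Glis3 and Npnt. They were below male medians for C1ql2, Calb1 and Stxbp6. For Prox1 the WT/Veh medians were 77.4 CPM in 4 females and 56.6 CPM in 4 males. The median log2 fold change of females against males, with group in the model, was -0.61 against 0.00 over all genes, and edgeR called 0 of 10 genes and 0.0478% of all genes. DESeq2 and limma voom also called 0 of 10. The unadjusted p was under 0.05 for 5 of the 10, Prox1, C1ql2, Lct, Trpc6 and Stxbp6, and for 692 of 16723 genes overall. Prox1 read 28.3 to 143 CPM in 16 females (median 57.5), against 50.4 to 163 CPM in 16 males (median 88.8), a log2 fold change of -0.65 (SE 0.20, interval -1.05 to -0.26, adjusted p = 0.846), and 7 of 16 females were below the lowest male. Lct read 1.46 to 71.7 CPM in females (median 14.7), against 1.41 to 85.2 CPM in males (median 31.2), or -1.17 on the log2 scale with an SE of 0.42 (adjusted p = 1.00 by edgeR). Calb1 read 59.7 to 258 CPM in females (median 130), against 89.9 to 228 CPM in males (median 133), a log2 fold change of -0.10 with an interval of -0.39 to 0.18. All 12 thalamus and all 12 choroid plexus genes were also lower in females, by medians of -0.44 and -0.39 on the log2 scale, with 0 called and 0 at an unadjusted p under 0.05 by edgeR. With these levels as covariates the median of the granule cell genes was -0.72, with 10 of 10 negative.

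The genotype values differed in sign between the sexes, which led to a model with 8 groups, chosen after these values were seen. In 4 females a group, 5xFAD/Veh against WT/Veh gave negative values for 9 of 10 genes with a median of -0.46, and in males positive values for 9 of 10 with a median of 0.85. As most of these genes rise and fall together in single mice, the signs are not separate results for each gene. EdgeR called 0 of 10 genes in females and 2.58% of all genes, and 0 of 10 in males and 2.47% of all genes. An unadjusted p under 0.05 was reached by 1 gene in females and 2 in males. Over all 16723 genes it was reached by 1679 in females and 2214 in males. Dsp had a log2 fold change of -1.66 in females (interval -3.26 to -0.07) and 1.01 in males (interval -0.57 to 2.59), and Prox1 -0.75 in females (interval -1.51 to 0.00) and 0.56 in males (interval -0.20 to 1.31). The interaction of genotype and sex under vehicle was called for 0 of 10 genes and 0% of all genes. By unadjusted p, 3 of 10 were under 0.05, namely Prox1 (-1.31, SE 0.52), Dsp (-2.68, SE 1.09) and Glis3 (-0.96, SE 0.39), with adjusted p of 0.463, 0.474 and 0.463 by edgeR. Of all genes, 1565 of 16723 had an unadjusted p under 0.05 for this interaction. For 5xFAD/D-45113 against 5xFAD/Veh the values were positive for 6 of 10 genes in females, with 0 called against 2.44% of all genes, and negative for 8 of 10 in males, with 0 called against 0% of all genes. An unadjusted p under 0.05 was reached by 1 gene in females (Calb1, -0.59) and 0 in males. The numbers over all 16723 genes were 2903 in females and 1471 in males. The interaction of treatment and sex in 5xFAD mice was called for 0 of 10 genes and 0% of all genes. An unadjusted p under 0.05 was found for 0 of 10, against 908 of 16723 genes overall. DESeq2 and voom were not run on this model.

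**Figure D5:**
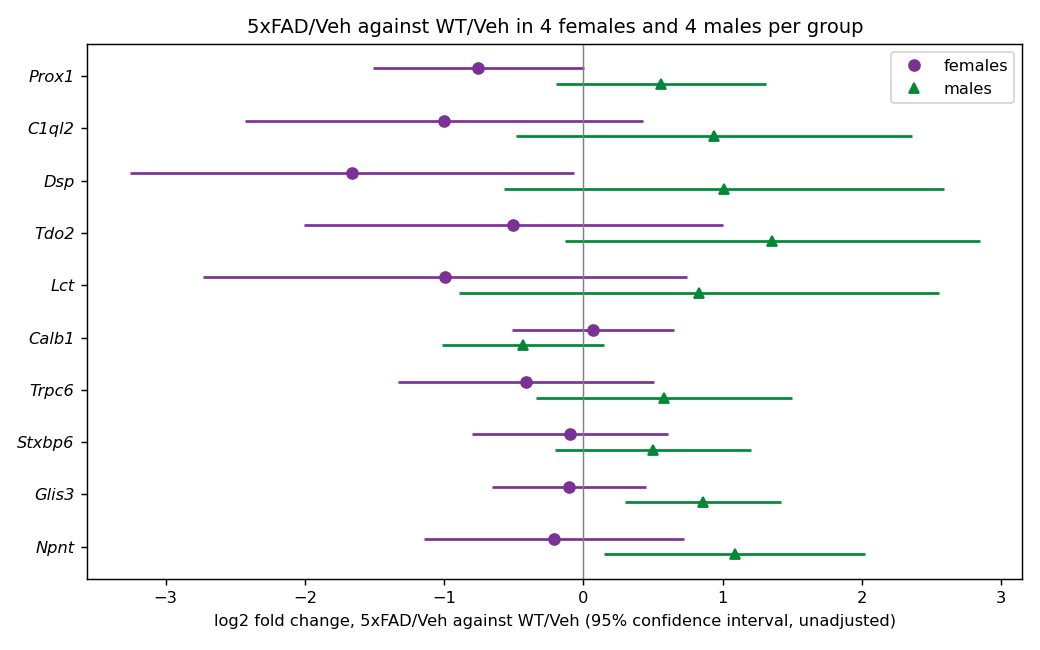
Log2 fold change of 5xFAD/Veh against WT/Veh for each gene in females (circles) and males (triangles), 4 mice per sex and group, with 95% confidence intervals that are not adjusted for the number of genes. In females 9 of 10 values lie below 0 and in males 9 of 10 above it, and the intervals of females and males overlap for every gene.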

How the data were processed

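Hippocampal RNA of 32 mice was sequenced, and library preparation, sequencing and mapping to mm10 (submitters' processing notes) were done by a service provider. For the aligner and the counter, nothing is given in the sources used here. The deposited tables hold raw counts of each gene and, separately, the authors' FPKM values, which are counts scaled by gene length and depth. Groups came from the sample titles, and 0 columns of values remained unmatched. Counts were tested with edgeR 4.0.16 in R 4.3.3 (filterByExpr, TMM, robust quasi-likelihood, 1 model of 4 groups, Benjamini-Hochberg, called at 0.05). CPM values were computed from the deposited counts, correlations used log2 CPM with a prior count of 2, and levels between genes used the deposited FPKM. DESeq2 1.42.0 and limma 3.58.1 served as alternatives. All 10 member genes were named, up to 4 genes of each other list with the smallest p, and the 10 most alike genes. Members and lists were chosen with earlier results of these data known. The edgeR model of 4 groups was checked on simulated counts, for 1 of its comparisons. Plots used matplotlib 3.10.9 (Python 3.11.15). Counting error alone is smallest for Calb1 (median 2475 counts) and largest for Tdo2 (median 60.5), and the spread between mice sets the error of every comparison.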

Additional observations from a re-analysis of the deposited data

Results flagged for a closer look

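The highest Glis3 value of the 5xFAD/Veh group, 14.8 CPM in mouse 1M, lay far from the other 7, the nearest of which was at 11.3 CPM, a gap of 0.57 of the group's range and above Dixon's critical value for 8. It was 1 of 40 sets of 8 values examined, and chance gives about 1 such value in 20 sets. None of the tested interactions was called for a member gene by edgeR.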

How the results depend on the processing

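EdgeR, DESeq2, limma voom and limma on FPKM called 0 of the 10 genes in each comparison under every alternative run, except that Tdo2 was not tested in the FPKM fits with a filter, and the lowest adjusted p of a member was 0.0807, for Lct in 5xFAD/D-45113 against WT/D-45113 without the 5xFAD/D-45113 mouse 3M. No sign turned in that comparison or in females against males. Elsewhere 88 values of genes that were not called took the other sign, mostly near 0, and the cause was not tested. Depth limits Tdo2 most, and the spread between mice limits all 10 genes. With 8 mice a group, changes of any size inside the confidence intervals given remain compatible with the data. The 8-group model by sex had no alternative run. The calls in other lists were less stable. None of the 8 was kept without the filter on low counts or within 1 sex, the replicate block ended those of Pdyn (adjusted p = 0.0558), Inhba (0.0527), Trpc1 (0.0518) and, in 5xFAD/D-45113 against WT/D-45113, Kynu (0.0710), and leaving out 1 mouse kept 13 of 32 for Rfx3 to 31 of 32 for Inhba.

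For 5xFAD/Veh against WT/Veh, the log2 fold changes that turned in females alone were Prox1 -0.77, C1ql2 -1.02, Tdo2 -0.52, Lct -1.01, Calb1 0.055, Trpc6 -0.43, Stxbp6 -0.11, Glis3 -0.11 and Npnt -0.23, and in males alone Dsp was 1.01. Prox1 was -0.071 and Lct -0.14 by limma voom, and they were -0.090 and -0.14 with sex as a covariate. With thalamus and choroid plexus scores as covariates Lct was -0.12 and Trpc6 -0.086. On log2(FPKM + 1) Prox1 was -0.056, filtered or not, and on log2(FPKM + 0.1) Prox1 was -0.075 and Lct -0.060. Without the 5xFAD/D-45113 mice 3F and 4F (lowest totals) Dsp was 0.00017. Leaving out 1 mouse moved Dsp between -0.23 and 0.23, Prox1 between -0.21 and 0.20, Lct between -0.10 and 0.45, Trpc6 between -0.020 and 0.26 and C1ql2 between -0.033 and 0.51. For WT/D-45113 against WT/Veh, Glis3 was -0.44 in females alone.

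For 5xFAD/D-45113 against 5xFAD/Veh, values that turned in females alone were Prox1 0.33, C1ql2 0.57, Dsp 0.35 and Npnt 0.14. Npnt was 0.14 with the tissue scores, Prox1 0.071 and Dsp 0.25 by limma voom, Prox1 0.037 on log2(FPKM + 1), filtered or not, and Prox1 0.057 and Dsp 0.060 on log2(FPKM + 0.1). Prox1 was 0.016 and Npnt 0.094 without mice 3F and 4F, and 0.018 and 0.11 without the 5xFAD/D-45113 mice 1M and 4F (Thy1 in the WT range). Both sets of mice were chosen after seeing the data. Leaving out 1 mouse moved Stxbp6 between -0.012 and 0.27, Prox1 between -0.22 and 0.18, Npnt between -0.30 and 0.031 and C1ql2 between -0.65 and 0.024. In the interaction, Prox1 was 0.064 and Dsp 0.19 in females, and Calb1 was 0.43 and Glis3 -0.38 in males. Calb1, near 0 in that term, was 0.048 by limma voom, 0.00067 by DESeq2, 0.00051 with RLE factors, 0.0032 with no filter, 0.050 on log2(FPKM + 1), filtered or not, and 0.051 on log2(FPKM + 0.1), and -0.11 to 0.16 with 1 mouse left out.

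With the replicate number as a block, which the labels do not tie to a shared litter or batch, Prox1 was -0.12 and Lct -0.00098 in 5xFAD/Veh against WT/Veh, Prox1 was 0.0075 in 5xFAD/D-45113 against 5xFAD/Veh and Calb1 was 0.023 in the interaction. The block called 0 of the 10 granule cell genes in the 5 contrasts of groups. Deviations of same-numbered mice correlated at -0.23 to 0.28 over all genes, and 1 to 3 of 8 mice in a pair of groups correlated best with their own number.

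The counts over all genes, which give the background shares, moved more. WT/D-45113 against WT/Veh, with 4 genes called by edgeR, gave 26 by DESeq2, 0 by limma voom, 0 with only the groups compared, 2 with tissue scores, 0 and 7 on log2(FPKM + 1) and log2(FPKM + 0.1), 0 without the FPKM filter, 40 in males, and 2 to 7 with 1 mouse left out. 5xFAD/Veh against WT/Veh gave 646, and 328 in females. 5xFAD/D-45113 against 5xFAD/Veh, with 662, gave 1126 by DESeq2, 379 with no filter, 2 with tissue scores, 361 on log2(FPKM + 1) without a filter, 116 in females, 0 in males, 231 without 3F and 4F, and 188 without 1M and 4F. Leaving out 1 mouse gave 355 to 1056, with 355 without 5xFAD/D-45113 2M, 387 without 4F and 1056 without 3M, and 391 without 5xFAD/Veh 1F and 422 without 4F. 5xFAD/D-45113 against WT/D-45113, with 847, gave 510 with only the groups compared, 526 with tissue scores, 207 in females, 204 in males, 523 without 3F and 4F, and 540 without 1M and 4F. The interaction gave 14 by DESeq2, 43 in males, 2 without 3F and 4F, and 0 to 2 with 1 mouse left out. Females against males, with 8, gave 14 by DESeq2.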
